A study of Homo sapiens with 12 samples.

Results

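The MAF family of transcription factors was followed across 12 RNA-seq libraries of human prostate cancer cells. The family was taken as 6 genes by their symbols in the deposited table, which holds 19973 genes. They are the large MAF genes MAF, MAFA and NRL and the small MAF genes MAFF, MAFG and MAFK, and other family members were not analysed here. MAF itself was chosen by its read counts, for its opposite changes in the cell lines, so its values stand as a description with no test. The remaining 5 members were taken by family name, with earlier results of these data known. C4-2 descends from LNCaP cells and grows without androgen, and 22Rv-1 is a prostate cancer line that makes its own ARv7, a splice variant tied to resistance to hormone therapy. The groups were C4-2 cells with a lentivirus expressing ARv7 (C4-2 ARv7), C4-2 cells with the control lentivirus (C4-2 control), 22Rv-1 cells with a lentiviral hairpin against ARv7 (22Rv-1 shARv7) and 22Rv-1 cells with the control hairpin (22Rv-1 shcontrol), with 3 libraries in each of the 4 groups. All groups carried a lentivirus and grew in medium with serum, and the cells with changed ARv7 had been selected with puromycin. Replicates were dishes plated in triplicate, so p-values measure the spread between dishes, which may be technical. The sources used here do not give the number of hairpins or of independently selected populations, or whether controls were selected.

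MAF proteins are basic leucine zipper factors that bind DNA as dimers. Large MAF proteins carry an activation domain and drive programmes of single tissues, such as lens and T cells for MAF, pancreatic beta cells for MAFA and rod photoreceptors for NRL. Small MAF proteins have no such domain: their homodimers can repress, and their heterodimers with the cap'n'collar factors (NFE2, NFE2L1, NFE2L2, NFE2L3) or with BACH1 and BACH2 activate or repress genes that carry an antioxidant response element. MAF is best known as an oncogene of multiple myeloma.

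The sequence upstream of MAF is shown because MAF had the largest changes of the family, and that of MAFF because it holds matches to elements that MAF dimers or related zipper factors can bind. RefSeq promoter sequences on GRCh38.p14, from 250 bases before to 50 bases after a transcription start, were searched on both strands for MAF, NRL, MAFF and MAFG, which matched by symbol. No promoter sequence of MAFA or MAFK was used here. The 250 bases before the MAF start lie on the minus strand at chr16:79600738-79600987, with a TATA box (TATAAA) and a CRE core (TGACGTCA) in capitals:
MAF: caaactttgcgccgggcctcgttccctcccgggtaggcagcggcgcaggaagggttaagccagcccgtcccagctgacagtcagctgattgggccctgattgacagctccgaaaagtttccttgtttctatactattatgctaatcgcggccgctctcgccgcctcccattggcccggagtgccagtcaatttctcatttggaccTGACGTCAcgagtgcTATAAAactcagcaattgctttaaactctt
The TATA box began 30 bases and the CRE core 45 bases before the start. A stretch upstream of MAFF on the plus strand, at chr22:38201862-38201890, has an antioxidant response element core (TGACNNNGC) in capitals, which reads on the opposite strand:
MAFF antioxidant: cttccaggggGCGGGGTCAtacgggggcg
A second stretch, at chr22:38201930-38201957, has a CRE core in capitals:
MAFF CRE: gccgggtcggTGACGTCAccgcatgact
The MAFF matches began 122 and 54 bases before that RefSeq start. The antioxidant core overlapped a GC box (GGGCGG) by 4 bases.

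Among all 35116 promoters of this length, TATAAA was present in 11.53%, TGACGTCA in 1.848%, TGACNNNGC in 13.347% and GGGCGG in 44.954%. The CRE core was added to the search after the sequences had been read. The MAF window held no exact match to TGCTGAC, the MAF half-site searched for (in 4.189% of promoters), and looser MAF half-sites were not searched. It also held no AP-1 site (TGANTCA, in 7.709%) and no GC box. The MAFF window that holds both stretches had 4 GC boxes. A window at another RefSeq start of MAFF, chr22:38202770-38203069, held 2 GC boxes and neither the antioxidant core nor the CRE core. GC content was 51.7% in the MAF window and 66.3% and 69.7% in the MAFF windows, beside a median of 58.7% over all promoters. No window of MAF, NRL, MAFF or MAFG held the androgen receptor half-site (AGAACA, in 14.785% of promoters). The full androgen receptor site and the full MAF elements were in none of these windows either, and in 0.003% or fewer of all promoters. In the NRL and MAFG windows the only matches were to the GC box. These matches describe letters only.

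Libraries held 12318529 to 14672948 read counts, and a floor of 3 counts lay between 0.204 and 0.244 CPM, the count scaled to a common library total with TMM factors. All 9 luminal prostate markers used, such as KLK3 and HOXB13, were present, with a mean sum of 7468, 4584, 1940 and 1616 CPM in C4-2 ARv7, C4-2 control, 22Rv-1 shARv7 and 22Rv-1 shcontrol, scaled over all 12 libraries. Mean sums in the same order were 2.20, 3.71, 0.716 and 0.210 CPM for basal markers, 2.84, 4.50, 39.2 and 57.9 for neuroendocrine markers, 1.32, 3.11, 6.83 and 4.08 for lymphocyte and macrophage markers, and 19.97, 12.1, 22.1 and 19.5 for fibroblast and endothelial markers. The luminal sum was higher with ARv7 in C4-2 and with its depletion in 22Rv-1, but a sum weights abundant genes most. KLK3 averaged 2538 and 672 CPM in C4-2 ARv7 and C4-2 control, while HOXB13 averaged 395 and 576 CPM. FOLH1 averaged 816 and 671 CPM in 22Rv-1 shARv7 and 22Rv-1 shcontrol, while TMPRSS2 averaged 21.7 and 48.5 CPM. In C4-2 5 of the 9 luminal genes rose and 3 fell, beside 29.6% and 29.5% of all genes, and in 22Rv-1 6 rose and 2 fell, beside 23.9% and 24.1%. The part of the marker lists in the results was not tested.

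MAF, the large member known from T cells, lens and myeloma, was 6.55-fold higher in C4-2 cells expressing ARv7 and 7.86-fold lower in 22Rv-1 cells depleted of it. The gene lies on the minus strand at chr16:79585843-79600737 in GRCh38 and overlaps no other gene in GENCODE release 29. It had 253, 263 and 255 CPM in C4-2 ARv7, against 37.2, 36.6 and 43.9 CPM in C4-2 control. It had 6.32, 5.12 and 6.48 CPM in 22Rv-1 shARv7, against 46.6, 45.9 and 48.9 CPM in 22Rv-1 shcontrol. The groups of a line lay far apart, and the replicates of a group lay close together. In reads, these were 3891, 3849 and 3307 counts in C4-2 ARv7 and 525, 514 and 586 in C4-2 control. They were 84, 67 and 92 counts in 22Rv-1 shARv7 and 657, 592 and 706 in 22Rv-1 shcontrol, so even the lowest group was well above the floor of 3 counts. In cultures measured in bulk, fewer cells with a transcript and less transcript per cell cannot be told apart.

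The MAF log2 change was 2.71 (SE 0.073) in C4-2 and -2.97 (SE 0.11) in 22Rv-1, both from edgeR. Each SE describes the spread between dishes and is no test, since MAF was picked for these changes. By the smaller of its opposite changes MAF ranked 3 of 12080 genes tested in both lines, which describes how it was picked. FPKM divides by gene length and library total, with no TMM factor. On that scale MAF averaged 38.6 ± 0.76 in C4-2 ARv7 and 5.32 ± 0.42 in C4-2 control (SD, n = 3 each). It averaged 0.868 ± 0.11 in 22Rv-1 shARv7 and 6.62 ± 0.24 in 22Rv-1 shcontrol (SD, n = 3 each). The controls of the lines had similar levels: the 22Rv-1 shcontrol over C4-2 control log2 difference was 0.17, also with no test.

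**Figure D1:**
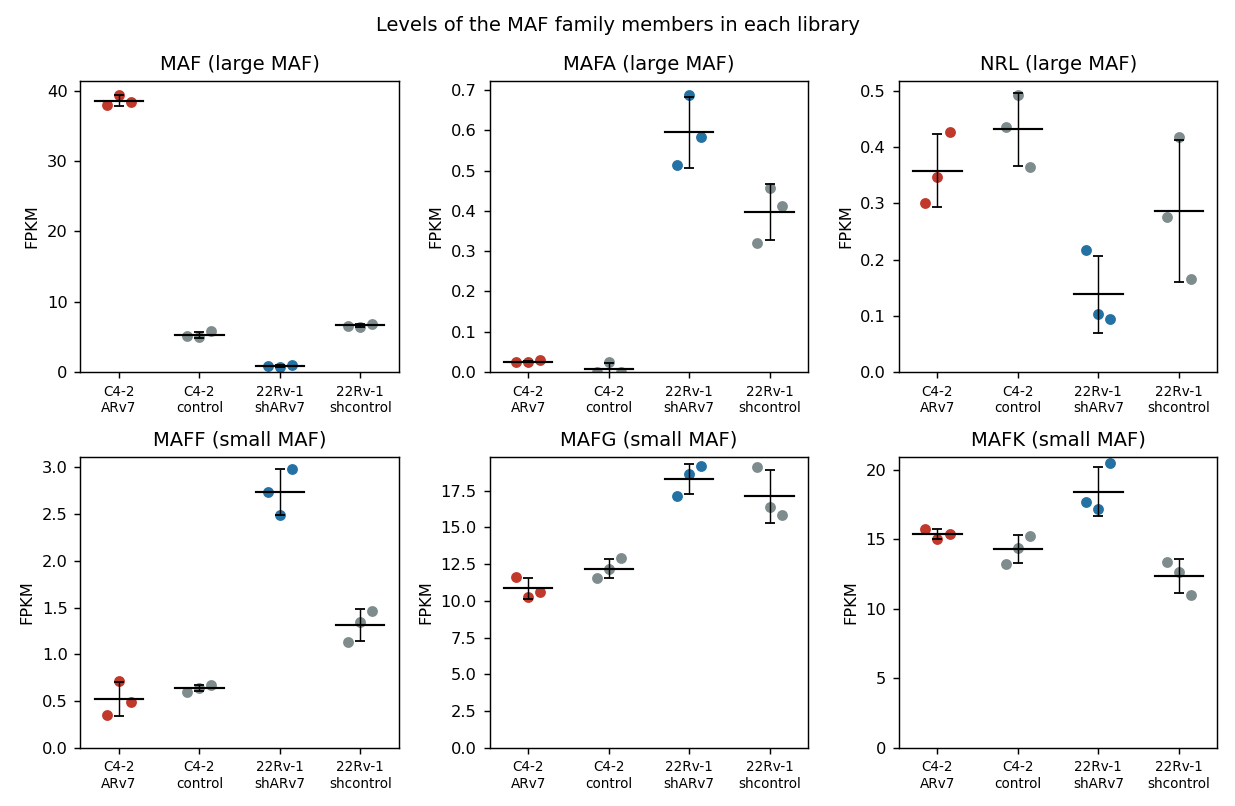
FPKM (y axis, linear from 0, a separate scale in each panel) of the 6 MAF family members in the 4 groups, with 1 point per library, a line at the mean and bars of 1 SD (n = 3). MAF stands at 38.6 in C4-2 ARv7 and 5.32 in C4-2 control, and at 0.868 in 22Rv-1 shARv7 and 6.62 in 22Rv-1 shcontrol, while MAFF and MAFK are highest in 22Rv-1 shARv7.

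The gene nearest to MAF at lower coordinates was WWOX, an oxidoreductase and candidate tumour suppressor across a fragile site, which ends 373176 bp away. WWOX averaged 13.1 ± 1.63 CPM in C4-2 ARv7 and 11.03 ± 1.35 CPM in C4-2 control, and did not pass the test (log2 change 0.25, adjusted p = 0.146, edgeR). It fell to 6.81 ± 1.43 CPM in 22Rv-1 shARv7, against 12.03 ± 1.34 CPM in 22Rv-1 shcontrol (log2 change -0.82, adjusted p = 7.64e-06, edgeR). On the other side DYNLRB2, a dynein light chain gene 939997 bp away, was at 0.825 CPM in C4-2 ARv7 and 0.504 in C4-2 control, and at 1.34 CPM in 22Rv-1 shARv7 and 0.672 in 22Rv-1 shcontrol. In 22Rv-1 WWOX thus had a smaller change of the same sign as MAF, beside 24.1% of all genes lower. DYNLRB2 had a log2 change of 0.99 there that did not pass (adjusted p = 0.0584, edgeR). Neither neighbour passed the test in C4-2, where DYNLRB2 was too low to be tested. A link between these changes and that of MAF was not tested.

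Among the other 5 members, 1 of the 4 tested in C4-2 passed the threshold of an adjusted p under 0.05, beside 59.1% of all 12783 genes tested, of which 29.6% were higher and 29.5% lower. In 22Rv-1, 3 of the 5 tested passed, 2 higher and 1 lower, beside 48% of all 13459 genes, with 23.9% higher and 24.1% lower. With so many genes past the threshold, these counts are not a result about the family. Of all C4-2 calls 50.03% were higher, but 67.2% were when libraries were scaled by total counts alone, and 65.6% with limma on log2(FPKM + 1).

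MAFA, the activator of insulin transcription in beta cells (chr8:143419182-143430732), was near the floor in C4-2 and low in 22Rv-1. It had 1, 1 and 1 reads in C4-2 ARv7 and 0, 1 and 0 reads in C4-2 control, too few to be tested. In 22Rv-1 it had 19, 25 and 23 reads in shARv7, against 13, 17 and 17 reads in shcontrol, so the groups did not overlap in reads. Its log2 change of 0.54 did not pass (SE 0.38, adjusted p = 0.241, edgeR). The ratio of summed reads, scaled by library totals with no TMM factor, was 1.50 with a 95% counting interval of 1.02 to 2.23. Between controls the contrast was wide, with 47 reads in 22Rv-1 shcontrol against 1 read in C4-2 control, a ratio of 48.8 with a counting interval of 8.33 to 1966. The intervals cover counting error only, because copies made by PCR were not told apart.

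NRL, the factor that sets the rod photoreceptor fate (chr14:24078662-24115010), was also low in every group. It had 20, 22 and 24 reads in C4-2 ARv7, against 29, 33 and 24 reads in C4-2 control, and its log2 change of -0.42 did not pass (SE 0.31, adjusted p = 0.255, edgeR). In 22Rv-1 it had 13, 6 and 6 reads in shARv7, against 18, 25 and 11 reads in shcontrol, so the groups overlapped. The log2 change of -1.08 (SE 0.47) lay at the threshold with an adjusted p of 0.0498 in edgeR, and DESeq2 gave 0.156. Leaving out 22Rv-1 shcontrol replicate 2 gave a log2 change of -0.72 and an adjusted p of 0.308, and the call was also lost without shcontrol replicate 1, shARv7 replicate 2 or shARv7 replicate 3 (adjusted p 0.0832, 0.155 and 0.179). NRL shares 293 exon bases with DCAF11 on the opposite strand, and whether reads were counted by strand is not given, so reads of both genes cannot be told apart. DCAF11 changed by -0.54 on the log2 scale in C4-2 and by -0.01 in 22Rv-1. NRL also overlaps PCK2 on the opposite strand but shares no exon bases with it. The log2 change of PCK2 was 0.11 in C4-2 (adjusted p = 0.181, edgeR) and -0.39 in 22Rv-1 (adjusted p = 4.31e-11, edgeR).

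Of the small MAF genes, MAFF and MAFK rose in ARv7-depleted 22Rv-1 cells and MAFG fell in ARv7-expressing C4-2 cells. MAFF, a small MAF that stress and cytokines can induce (chr22:38200767-38216507), had 15.1, 13.8 and 16.4 CPM in 22Rv-1 shARv7, against 6.45, 7.67 and 8.32 CPM in 22Rv-1 shcontrol. The groups did not overlap, and MAFF was 2.02-fold higher (log2 change 1.01, SE 0.14, adjusted p = 4.31e-09, edgeR). In C4-2 MAFF had 1.88, 3.82 and 2.62 CPM with ARv7 and 3.47, 3.77 and 4.05 CPM in control. The C4-2 groups overlapped through ARv7 replicate 2, and the log2 change of -0.44 did not pass (95% interval -1.002 to 0.12, adjusted p = 0.171, edgeR). Without that library the change was -0.75 (adjusted p = 0.0451, edgeR). MAFF overlaps PLA2G6 on the opposite strand but shares no exon bases with it.

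MAFK, a partner of the erythroid factor NFE2 and of NFE2L2 (chr7:1530702-1543043), had 77.9, 75.4 and 89.8 CPM in 22Rv-1 shARv7, against 61.0, 57.7 and 49.9 CPM in 22Rv-1 shcontrol. All shARv7 libraries were above all shcontrol libraries, and MAFK was 1.44-fold higher (log2 change 0.53, SE 0.071, adjusted p = 1.71e-09, edgeR). In C4-2 it had 66.8, 63.9 and 65.3 CPM with ARv7 and 61.0, 67.0 and 73.9 CPM in control, which overlapped fully (log2 change -0.04, 95% interval -0.20 to 0.12, adjusted p = 0.663, edgeR). The sign of that C4-2 difference turned on the scale, since mean FPKM was 15.4 ± 0.35 with ARv7 and 14.3 ± 1.02 in control. MAFK shares 809 exon bases with TMEM184A on the opposite strand, and reads there cannot be told apart. TMEM184A rose by 0.25 on the log2 scale in C4-2 (adjusted p = 0.00208, edgeR) and had a log2 change of -0.02 in 22Rv-1 (adjusted p = 0.842, edgeR), where MAFK rose.

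MAFG, a widely expressed partner of the cap'n'collar factors (chr17:81918270-81927735), had 58.0, 51.3 and 52.7 CPM in C4-2 ARv7, against 62.4, 66.5 and 73.1 CPM in C4-2 control. The groups did not overlap, and MAFG was 1.25-fold lower (log2 change -0.32, SE 0.079, adjusted p = 0.00181, edgeR). With total counts as the only scaling, the change was -0.17 (adjusted p = 0.0656) while the median of all genes moved to 0.152, and limma, fitted to log2(FPKM + 1), put it at -0.16 (adjusted p = 0.0676). In 22Rv-1 MAFG had 88.8, 95.9 and 98.6 CPM in shARv7 and 102, 87.2 and 84.2 CPM in shcontrol, which overlapped (log2 change 0.05, 95% interval -0.08 to 0.18, adjusted p = 0.534, edgeR). MAFG shares 105 exon bases with SIRT7 on the same strand and 224 with an antisense gene, and reads there cannot be told apart. SIRT7, a sirtuin, fell by 0.20 on the log2 scale in C4-2 (adjusted p = 0.0397, edgeR).

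**Figure D2:**
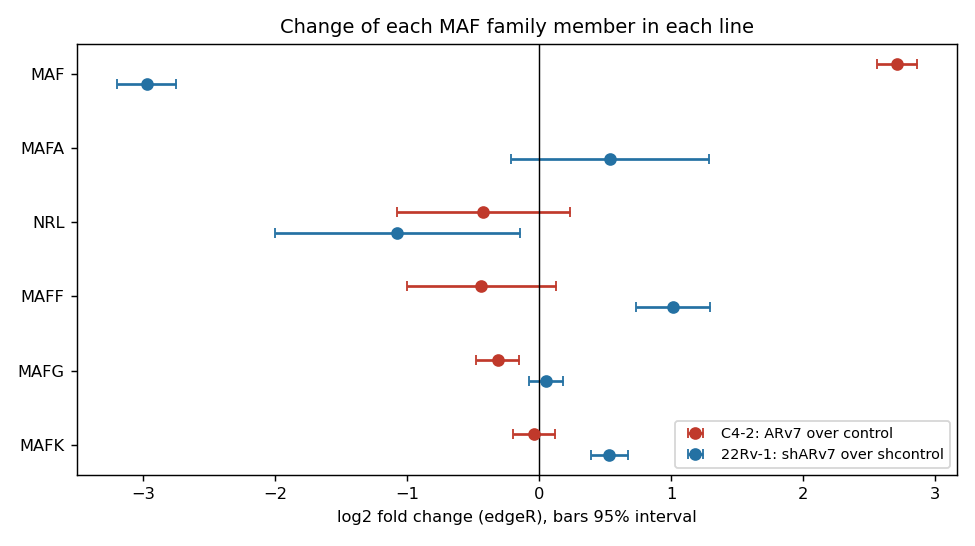
Log2 fold change from edgeR (x axis) of each MAF family member, with bars of the 95% interval, for C4-2 ARv7 over C4-2 control (red) and 22Rv-1 shARv7 over 22Rv-1 shcontrol (blue). MAF lies at 2.71 in C4-2 and -2.97 in 22Rv-1, MAFF at -0.44 and 1.01. MAFA has no C4-2 point because it was not tested there. The bars of MAF describe the spread between dishes and are no test, since MAF was picked for these changes.

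The changes in the lines were also set against each other as the C4-2 change minus the 22Rv-1 change, where the manipulations of ARv7 run in opposite directions. Of the 5 members other than MAF, 3 differed, all with the lower value in C4-2, beside 50.2% of all 14235 genes in either direction and 25.1% lower. The difference was -1.44 (SE 0.29) for MAFF, -0.35 (SE 0.11) for MAFG and -0.56 (SE 0.11) for MAFK on the log2 scale, with edgeR adjusted p of 6.18e-05, 0.00655 and 8.98e-05. The MAFG difference had an adjusted p of 0.0511 with limma on log2(FPKM + 0.1). MAFA and NRL did not pass, at 0.74 (SE 1.32) and 0.67 (SE 0.59). For MAF the difference was 5.70, of the opposite sign to all 3 small MAF genes, as its choice for a rise in C4-2 and a fall in 22Rv-1 fixes.

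Between the control groups, 22Rv-1 shcontrol over C4-2 control, 4 of the 5 members other than MAF passed, beside 83.4% of all genes, with 42.5% higher and 40.9% lower. MAFA was higher by 5.03 on the log2 scale, MAFF by 0.89 and MAFG by 0.34, while MAFK was lower by 0.36 (edgeR adjusted p 1.15e-06, 0.000111, 0.000118 and 0.00013). NRL had a log2 difference of -0.75 that did not pass (adjusted p = 0.0625, edgeR), and without 22Rv-1 shcontrol replicate 2 it was -1.12 (adjusted p = 0.0204, edgeR).

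On the FPKM scale, which allows levels of different genes to be set side by side, the order of the family differed between groups. In C4-2 ARv7 MAF led with 38.6, followed by MAFK with 15.4 and MAFG with 10.8. In C4-2 control MAFK led with 14.3, followed by MAFG with 12.2 and MAF with 5.32. In 22Rv-1 shARv7 MAFK with 18.4 and MAFG with 18.3 overlapped at the top, MAFF followed with 2.74, and MAF stood at 0.868. In 22Rv-1 shcontrol MAFG led with 17.1, followed by MAFK with 12.4, MAF with 6.62 and MAFF with 1.31. MAFA and NRL were below 0.7 FPKM in every library, and MAFF and NRL overlapped in C4-2 ARv7, as did MAFA and NRL in 22Rv-1 shcontrol.

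The sum of MAFF, MAFG and MAFK was 26.8 ± 0.88 FPKM in C4-2 ARv7 and 27.1 ± 1.73 FPKM in C4-2 control, and 39.5 ± 2.74 FPKM in 22Rv-1 shARv7 and 30.8 ± 2.71 FPKM in 22Rv-1 shcontrol (SD, n = 3 each). In TMM-scaled CPM, MAFF, MAFG and MAFK averaged 2.77, 54.0 and 65.3 in C4-2 ARv7, against 3.76, 67.4 and 67.3 in C4-2 control. MAF over the small MAF sum in FPKM was 1.44 ± 0.073 in C4-2 ARv7 and 0.196 ± 0.010 in C4-2 control. It was 0.022 ± 0.0025 in 22Rv-1 shARv7 and 0.217 ± 0.025 in 22Rv-1 shcontrol, so MAF transcript exceeded small MAF transcript in C4-2 ARv7 and in no other group. MAFF made up 6.93 ± 0.38% of the small MAF sum in 22Rv-1 shARv7 and 4.31 ± 0.91% in 22Rv-1 shcontrol, beside 1.96 ± 0.74% in C4-2 ARv7 and 2.35 ± 0.032% in C4-2 control.

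Of the 6 cap'n'collar and BACH genes that encode partners of small MAF proteins, 4 were tested in C4-2 and all 4 were lower with ARv7, beside 29.5% of all genes. Their median log2 change was -0.38 beside 0.005 over all genes. NFE2L3 fell to 13.97 ± 0.76 CPM in C4-2 ARv7, against 22.6 ± 2.07 CPM in C4-2 control (log2 change -0.69, adjusted p = 3.08e-05, edgeR). NFE2L1, the regulator of proteasome genes, was at 286 ± 7.39 CPM with ARv7 and 390 ± 15.5 CPM in control (log2 change -0.44, adjusted p = 1.30e-06, edgeR). The falls of BACH1, a haem-sensing repressor, and NFE2L2, the main activator of antioxidant genes, were -0.32 and -0.29. With total counts as the only scaling, and likewise with limma, 2 of the 4 were lower, since BACH1 and NFE2L2 had adjusted p of 0.0699 and 0.235 with total counts. NFE2L2 was also lost without C4-2 ARv7 replicate 1 or C4-2 control replicate 2 (adjusted p 0.0895 and 0.0785, edgeR).

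In 22Rv-1, 1 of the 5 tested partners rose and 1 fell, while 3 missed the threshold, beside 48% of all genes called, and the median log2 change was 0.02 beside 0.009 over all genes. BACH2, a repressor known from B cells, had 3.84, 2.98 and 4.23 CPM in shARv7, against 0.993, 1.39 and 1.25 CPM in shcontrol (log2 change 1.60, adjusted p = 9.67e-06, edgeR). In C4-2 BACH2 had 0 to 5 reads in each library and was not tested. BACH1 fell by 0.33 on the log2 scale in 22Rv-1 (adjusted p = 0.00141, edgeR). Without 22Rv-1 shcontrol replicate 3, 2 partners fell. NFE2, the haematopoietic partner, had at most 5 reads in any library and was not tested.

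KEAP1, the adaptor that presents NFE2L2 to a CUL3 ubiquitin ligase, was among 4 of 7 regulators of NFE2L2 turnover that fell in C4-2, beside 29.5% of all genes (median log2 change -0.29). KEAP1 was at 149 ± 5.17 CPM in C4-2 ARv7 and 233 ± 22.9 CPM in C4-2 control (log2 change -0.64, adjusted p = 1.27e-07, edgeR). CUL3 and SQSTM1, the autophagy receptor that sequesters KEAP1, changed by -0.52 and -0.36, while DPP3, a peptidase that competes for KEAP1, rose by 0.41. In 22Rv-1 SQSTM1 and BTRC, a ubiquitin ligase subunit, rose by 0.25 and 0.28, none of the 7 fell, and the median was 0.09, beside 23.9% of all genes higher and 24.1% lower. The BTRC call was lost without 22Rv-1 shcontrol replicate 1 (adjusted p = 0.0632, edgeR), which left 1 rise, and without shcontrol replicate 3 there was 1 fall.

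Genes with an antioxidant response element, which small MAF heterodimers bind, moved both ways. In C4-2, 5 of 23 tested rose and 11 fell, beside 29.6% and 29.5% of all genes, while 7 missed the threshold, and the median log2 change was -0.18. EPHX1, the microsomal epoxide hydrolase, fell to 355 ± 13.3 CPM in C4-2 ARv7, against 1268 ± 148 CPM in C4-2 control (log2 change -1.83, adjusted p = 4.53e-14, edgeR). GCLM, the modifier subunit of the enzyme that starts glutathione synthesis, and ME1, an NADPH-making malic enzyme, fell by 0.78 and 0.69 on the log2 scale. NQO1, a quinone reductase, rose to 52.1 ± 0.27 CPM in C4-2 ARv7, against 37.0 ± 1.58 CPM in C4-2 control (log2 change 0.49, adjusted p = 1.57e-05, edgeR). The number of rises was 8 with total counts as the only scaling and 3 without C4-2 control replicate 2, and the number of falls was 7 with limma on log2(FPKM + 1).

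In 22Rv-1, 11 of 27 tested antioxidant genes rose and 7 fell, beside 23.9% and 24.1% of all genes, while 9 missed the threshold, and the median log2 change was 0.15. PRDX1, a peroxiredoxin, averaged 169 ± 5.31 CPM in shARv7 and 93.1 ± 1.63 CPM in shcontrol (log2 change 0.86, adjusted p = 3.93e-23, edgeR). TXN, the thioredoxin, and NQO1 rose by 0.55 and 0.52, and UGDH and the ferritin gene FTH1 fell by 0.39 and 0.55. NQO1 thus rose in both lines although ARv7 was changed in opposite directions. HMOX1, the haem oxygenase repressed by BACH1, was named after its values were seen: it averaged 11.4 ± 0.18 CPM in shARv7 and 6.89 ± 0.59 CPM in shcontrol (log2 change 0.73, adjusted p = 4.21e-05, edgeR). In C4-2 HMOX1 averaged 5.55 ± 0.84 CPM with ARv7 and 5.24 ± 0.78 CPM in control, and the groups overlapped (log2 change 0.08, adjusted p = 0.75, edgeR). The log2 change of BACH1 was -0.32 in C4-2 and -0.33 in 22Rv-1, and a link to HMOX1 was not tested. ME1, which fell in C4-2, rose in 22Rv-1, with 18, 13 and 27 reads in shARv7 against 3, 0 and 4 reads in shcontrol, a ratio of 8.75 with a counting interval of 3.99 to 22.7.

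FOS and JUN proteins, zipper factors that can pair with MAF proteins or compete for like elements, gave 1 rise and 2 falls among 5 tested in C4-2, a share of calls near the 59.1% of all genes. JUND fell to 78.0 ± 3.12 CPM in C4-2 ARv7, against 153 ± 11.02 CPM in C4-2 control (log2 change -0.97, adjusted p = 3.10e-10, edgeR), and JUN rose by 0.53. The fall of FOSB, at 1.41 CPM with ARv7 and 2.55 CPM in control, was lost with DESeq2 (adjusted p = 0.0719) and without C4-2 control replicate 2, ARv7 replicate 1 or ARv7 replicate 2 (edgeR adjusted p 0.15, 0.0594 and 0.107), leaving 1 fall. In 22Rv-1, 2 of 6 rose and 1 fell, near the 48% of all genes called. JUNB averaged 85.4 ± 4.11 CPM in shARv7 and 46.7 ± 1.03 CPM in shcontrol (log2 change 0.87, adjusted p = 9.14e-19, edgeR), FOS rose by 0.70 and JUN fell by 0.28. JUN is the member that passed in both lines, rising with ARv7 in C4-2 and falling with its depletion in 22Rv-1.

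**Figure D3:**
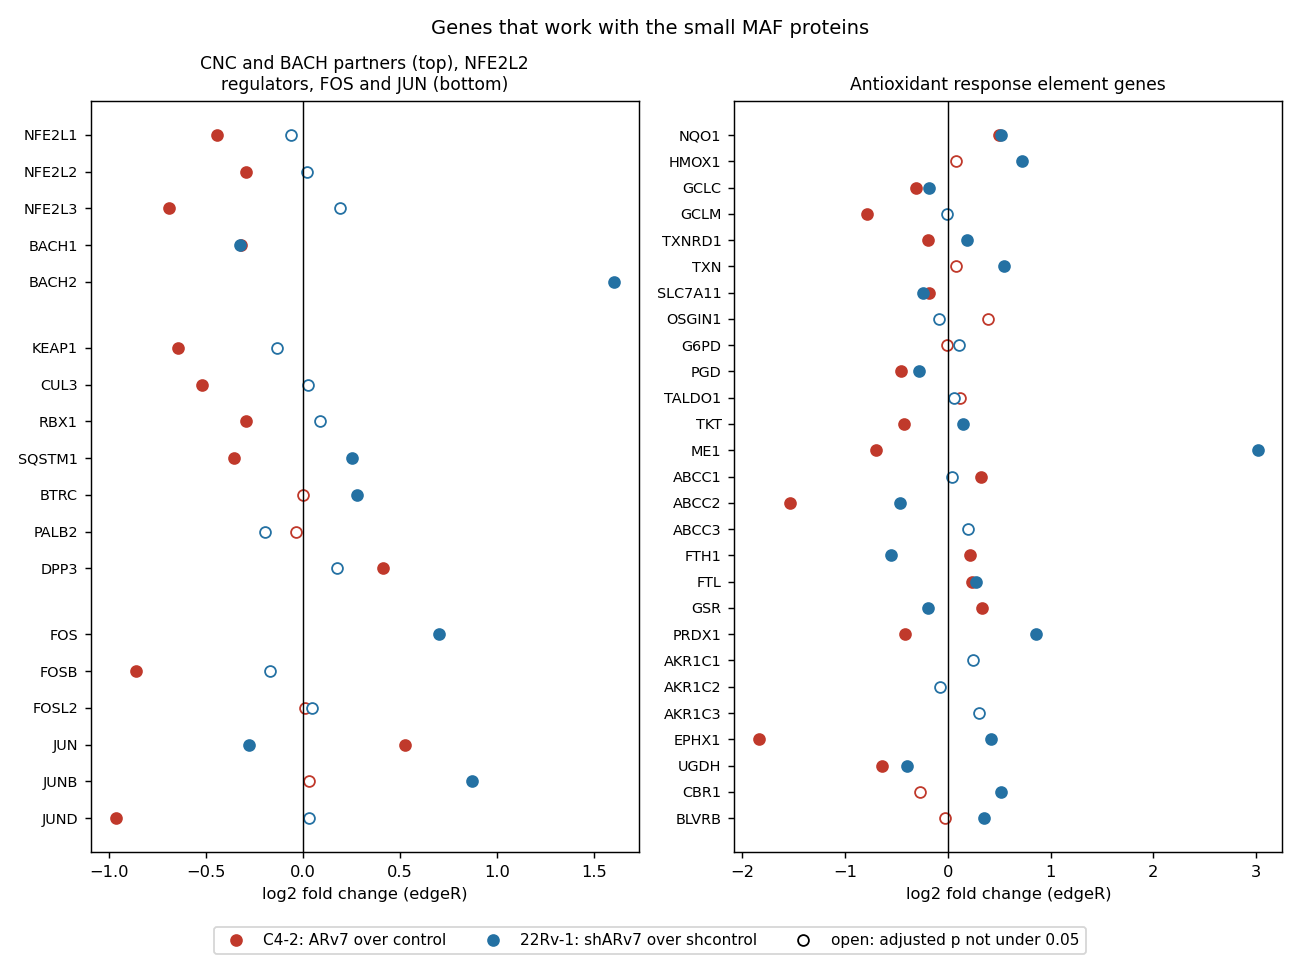
Log2 fold change from edgeR (x axes) of the tested cap'n'collar and BACH partners, regulators of NFE2L2 turnover and FOS and JUN genes (left panel) and of antioxidant response element genes (right panel). Red is C4-2 ARv7 over C4-2 control, blue is 22Rv-1 shARv7 over 22Rv-1 shcontrol, and open circles did not pass an adjusted p of 0.05; the 4 tested partners lie below 0 in C4-2, down to -0.69 for NFE2L3.

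Genes reported as MAF targets in myeloma and T cells were mostly silent in these cells, and 6 of 9 could not be tested in C4-2. CCND2, a cyclin, and ITGB7, an integrin chain, are the best known of them in myeloma. CCND2 had 0 reads in every C4-2 ARv7 library and 0, 0 and 1 reads in C4-2 control. IL4, a cytokine gene that MAF activates in T cells, had 10, 3 and 10 reads in C4-2 ARv7 against 0 in every C4-2 control library, and was too low to be tested. None of the 3 tested rose in C4-2, beside 29.6% of all genes, and 1 fell, DEPTOR, an inhibitor of the mTOR kinase, by 0.25 on the log2 scale (adjusted p = 0.0241, edgeR). The DEPTOR call was lost without C4-2 control replicate 2 or 3 or ARv7 replicate 1 or 3 (adjusted p 0.0525 to 0.128), and CX3CR1, a chemokine receptor, fell without ARv7 replicate 1. IL4 passed as higher with DESeq2 and with no filter on low counts (adjusted p 0.00196 and 0.000752), and NUAK1 with total counts as the only scaling (edgeR adjusted p 0.0336). In 22Rv-1, where MAF was lower with shARv7, 2 of 4 rose and 1 fell, beside 23.9% and 24.1% of all genes. CCR1, also a chemokine receptor, had 22, 13 and 28 reads in shARv7 against 1, 0 and 2 reads in shcontrol, a ratio of 22.2 with a counting interval of 7.25 to 110. ITGB7 had 10, 21 and 15 reads in shARv7 against 5, 2 and 7 reads in shcontrol, and its call was lost without shARv7 replicate 2 (adjusted p = 0.0657, edgeR). NUAK1, a kinase, fell to 14.1 ± 1.99 CPM in shARv7, against 21.8 ± 1.73 CPM in shcontrol (log2 change -0.64, adjusted p = 2.44e-06, edgeR).

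Of 14 large MAF targets known from lens, islet and retina, 2 were high enough to be tested in C4-2, where CRYAB, a small heat shock protein of the lens, fell by 0.54 on the log2 scale (adjusted p = 0.00254, edgeR), beside 59.1% of all genes called. In 22Rv-1 none of the 3 tested passed, beside 48% of all genes called. Between the controls, 22Rv-1 shcontrol over C4-2 control, all 5 tested passed, 3 higher and 2 lower, beside 83.4% of all genes. The number lower was 1 or 2 when each library was left out. PDE6B averaged 29.2 CPM in 22Rv-1 shcontrol and 0.329 CPM in C4-2 control, and CRYAB 0.070 and 14.7 CPM, scaled over all 12 libraries. Among 7 kinases and ubiquitin enzymes that act on the MAF protein, 5 fell and none rose in C4-2, beside 29.5% of all genes lower and 29.6% higher (median log2 change -0.26). USP7, a deubiquitinase, had a log2 change of -0.41 and GSK3B, a kinase that marks large MAF proteins for turnover, one of -0.36 (adjusted p 7.09e-06 and 2.57e-05, edgeR). The falls numbered 3 with total counts as the only scaling and 2 with limma, each beside 1 rise, and 3 without C4-2 ARv7 replicate 2. In 22Rv-1, 1 rose and 3 fell, beside 48% of all genes called (median -0.12), of which USP7 by 0.24 (adjusted p = 9.10e-05, edgeR), and the rise, of the ubiquitin ligase gene HERC4, was lost with DESeq2 and without shcontrol replicate 1 or 2 or shARv7 replicate 1 or 3 (edgeR adjusted p 0.0833 to 0.263).

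The genes most like MAF were ranked by Pearson r of log2 CPM over the 12 libraries, which share their line and library, among 11157 genes averaging 5 CPM or more. They were SPOCK1, a secreted proteoglycan, with r of 0.998, STK39, a kinase that controls ion transporters, with 0.991, C1orf116, known as specifically androgen-regulated gene, with 0.987, CERS6, a ceramide synthase, with 0.986, and MOCOS, a molybdenum cofactor sulfurase, with 0.983. SPOCK1 averaged 424 ± 7.82 CPM in C4-2 ARv7 and 122 ± 9.86 CPM in C4-2 control, and 30.8 ± 0.53 CPM in 22Rv-1 shARv7 and 141 ± 0.98 CPM in 22Rv-1 shcontrol, scaled over all 12 libraries. STK39 averaged 485 ± 11.8 and 182 ± 3.39 CPM in C4-2 ARv7 and C4-2 control, and 65.4 ± 1.50 and 233 ± 4.80 CPM in 22Rv-1 shARv7 and 22Rv-1 shcontrol. All 5 were highest in C4-2 ARv7 and lowest in 22Rv-1 shARv7, as MAF was, which their choice by r to MAF largely fixes. Between the controls MAF had the higher mean in 22Rv-1 shcontrol, while C1orf116, at 216 CPM in 22Rv-1 shcontrol and 258 CPM in C4-2 control, and MOCOS, at 71.0 CPM in 22Rv-1 shcontrol and 77.8 CPM in C4-2 control, had the reverse order. With Spearman rho none of the 5 was retained, and all 5 were retained when genes down to a mean of 1 CPM were admitted.

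**Figure D4:**
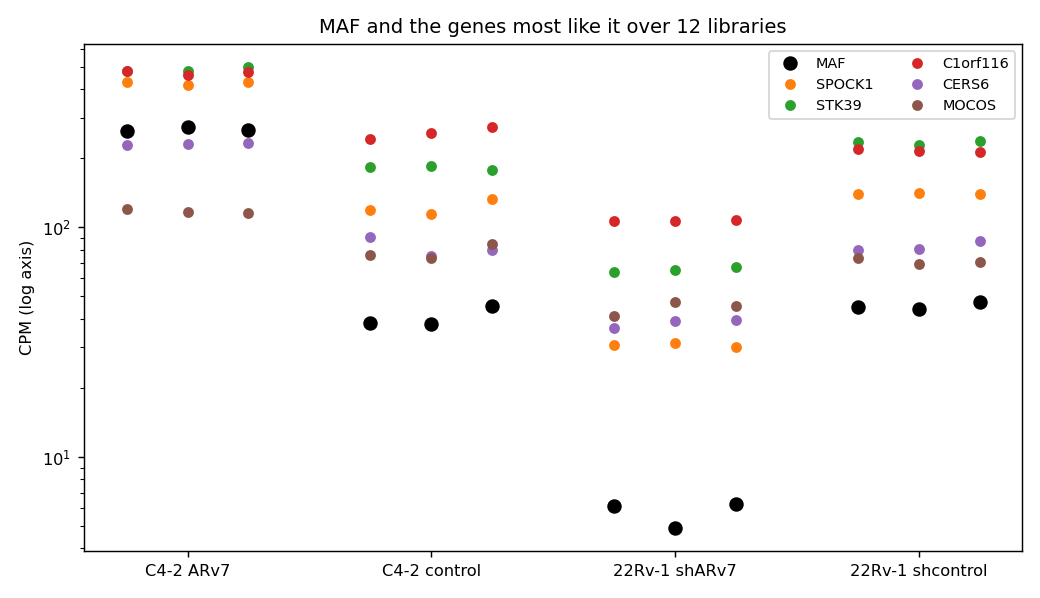
CPM scaled over 12 libraries (y axis, log scale) of MAF (black) and the 5 genes with the highest Pearson r to it, with 1 point per library in the 4 groups. Each gene is highest in C4-2 ARv7 and lowest in 22Rv-1 shARv7, for example SPOCK1 with means of 424 and 30.8 CPM there. The choice of the 5 genes by r to MAF largely fixes this order.

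For the other members the most alike genes were BCLAF3, THBS3 and ATP6V1C2 for MAFA (r of 0.996, 0.996 and 0.995), which mainly split by cell line. ATP6V1C2, a proton pump subunit, averaged 19.0 and 13.2 CPM in 22Rv-1 shARv7 and 22Rv-1 shcontrol, and 1.54 and 1.26 CPM in C4-2 ARv7 and C4-2 control. They were PHF5A, ATAD3A and NUB1 for NRL (0.946, 0.935 and 0.911), IRF2, EIF3H and YPEL3 for MAFF (0.982, 0.974 and 0.973), CRTC2, SLC39A14 and IGFBP2 for MAFG (0.9748, 0.974 and 0.973), and TSPO, HABP4 and SPRYD3 for MAFK (0.956, 0.939 and 0.926). YPEL3 averaged 43.5 ± 1.74 CPM in 22Rv-1 shARv7 and 20.7 ± 1.90 CPM in 22Rv-1 shcontrol, and 9.34 ± 0.36 CPM in C4-2 ARv7 and 14.3 ± 1.44 CPM in C4-2 control, the order of groups that MAFF had. The choice of YPEL3 by r to MAFF largely fixes that order. With Spearman rho 1 of 3 genes was retained for each of these 5 members.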

How the data were processed

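Expression was measured by RNA-seq in 12 libraries of 2 prostate cancer cell lines, in 4 groups taken from the sample titles. The deposited table gives raw read counts per gene and FPKM, which divides counts by gene length and library total, per the file headers. Reads were trimmed with Cutadapt 2.7, per the submitters' processing notes; no source used here gives the aligner, counting tool or strand. The notes name hg18, but 19884 of 19895 gene identifiers found in GENCODE release 29 had a start or end within 10000 bp of its GRCh38 position (9008 with both the same), so coordinates are the table's, on GRCh38. A broken line without an identifier was left out of the 19974 lines.

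Counts were fitted over all genes with edgeR 4.0.16 in R 4.3.3 (filterByExpr, TMM, quasi-likelihood F-test, Benjamini-Hochberg adjusted p, threshold 0.05), each line on its own, and in 1 fit of 12 libraries and 4 groups for differences between lines. CPM are TMM-scaled within a line unless said otherwise. Ratios with a counting interval are of summed reads scaled by library totals, with no TMM factor. Biological coefficients of variation were 0.065 (C4-2), 0.052 (22Rv-1) and 0.059 (all 12). Same-group libraries differed beyond counting noise (chi-square per degree of freedom 2.12 to 13.0), so none was a duplicate. Principal components held 84.0%, 7.31% and 4.43% of the variance. The fit was tested on simulated data. Alternatives were DESeq2 1.42.0, edgeR with the size factors of DESeq2, total counts, no filter, a filter at a mean of 5 CPM, a replicate block, limma 3.58.1 with a trend on log2(FPKM + 1) or log2(FPKM + 0.1) at a mean FPKM of at least 1, 1 fit for both lines, and each library left out.

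Named genes were all members, from each list up to 4 with the smallest adjusted p per comparison plus members called against most of the list, the 5 genes most like MAF and 3 most like each other member, and nearest genes. Members and lists were chosen with earlier results of these data known. No column of sample values was left unused. Some luminal markers and a check of the vectors are not reported here.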

Additional observations from a re-analysis of the deposited data

Results flagged for a closer look

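The change in C4-2 (ARv7 over control) and the change in 22Rv-1 (shARv7 over shcontrol) differed for 3 members in the edgeR test of the difference itself, at an adjusted p under 0.05. On the log2 scale the C4-2 change minus the 22Rv-1 change was -1.44 for MAFF, -0.35 for MAFG and -0.56 for MAFK. ARv7 was added in C4-2 and depleted in 22Rv-1, so the manipulations run in opposite directions. For MAFF and MAFK the change within 22Rv-1 passed the test and that within C4-2 did not; for MAFG the change within C4-2 passed and that within 22Rv-1 did not. Such a difference was found for 50.2% of all genes tested. With 3 libraries per group, no sample was tested for standing apart from its group.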

How the results depend on the processing

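MAFF and MAFK in 22Rv-1 kept their direction and call under every alternative run. For MAF, with no test, the C4-2 log2 change was 2.86 with total counts and 2.84 with limma on log2(FPKM + 0.1), and the 22Rv-1 change was -2.03 with limma on log2(FPKM + 1) and -2.80 on log2(FPKM + 0.1), where the pseudocount understates the change of low values. Members other than MAF called in C4-2 numbered 0 instead of 1 with total counts and with both limma fits, where MAFG was lost, and 1 to 2 when each library was left out, the 2 being without ARv7 replicate 2. The C4-2 difference of MAFK, which never passed, turned to 0.11 with total counts, 0.10 and 0.11 with limma at pseudocounts of 1 and 0.1, and lay between -0.11 and 0.028 when each library was left out, being above 0 without control replicate 3. The 22Rv-1 difference of MAFG, which never passed either, lay between -0.0094 and 0.14 when each library was left out, being below 0 without shcontrol replicate 3. NRL in 22Rv-1 was lost with DESeq2, total counts, no filter and 1 fit of all libraries (adjusted p 0.156, 0.0612, 0.0824 and 0.0544). Scaling by total counts moved the median log2 change of all genes to 0.152 in C4-2, 0.056 in 22Rv-1 and 0.183 between controls, from 0.005, 0.009 and 0.035 with TMM. The cause of these shifts was not tested.

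Replicate numbers did not pair the samples: same-numbered libraries of a line had correlations of deviations between -0.057 and 0.015. With the replicate block, 7310 genes passed in C4-2 and 6203 in 22Rv-1, against 7557 and 6467 without it, and of the members' calls NRL in 22Rv-1 had an adjusted p of 0.0702. Depth limits MAFA and NRL, at most 33 reads in any library.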

Other observations

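Between the controls, 22Rv-1 shcontrol over C4-2 control, all 5 tested cap'n'collar and BACH partners passed the edgeR test, 1 higher (BACH2, log2 difference 1.93) and 4 lower (NFE2L1 -0.68, BACH1 -0.82 and NFE2L3 -0.86 among them), beside 83.4% of all genes. Of 7 regulators of NFE2L2 turnover, 5 were lower and none higher, beside 40.9% of all genes lower and 42.5% higher, with KEAP1 at -1.73 and SQSTM1 at -1.43. Of 27 tested antioxidant response element genes, 11 were higher and 14 lower, near those shares of all genes. The aldo-keto reductases AKR1C1, AKR1C2 and AKR1C3, which handle steroids and carbonyls, were higher by 3.33, 3.86 and 3.74 on the log2 scale. They averaged 2.59, 4.83 and 4.12 CPM in 22Rv-1 shcontrol, scaled over all 12 libraries. In C4-2 control they averaged 0.250, 0.320 and 0.299 CPM, near the floor, so the size of these differences rests on few reads. ME1 had 3, 0 and 4 reads in 22Rv-1 shcontrol, against 1446, 1331 and 1284 reads in C4-2 control, and EPHX1 had a log2 difference of -4.41.

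In 22Rv-1, where MAFF rose, neither gene next to it did. BAIAP2L2, at lower coordinates, rose in C4-2 to 6.94 ± 0.70 CPM with ARv7, against 2.14 ± 0.17 CPM in control (log2 change 1.70, adjusted p = 1.40e-06, edgeR), and fell by 0.34 on the log2 scale in 22Rv-1 (adjusted p = 6.09e-05, edgeR). TMEM184B, on the side of higher coordinates, fell in C4-2 (log2 change -0.61, adjusted p = 2.98e-07, edgeR) and had a change of -0.05 in 22Rv-1 (adjusted p = 0.534, edgeR).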
